A study of Mus musculus with 2 samples.

Results

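The 9 genes described here encode transcription factors and cofactors shared by endothelium and blood: the ETS factors Erg, Fli1, Ets1 and Etv2, the SOX factors Sox7 and Sox17, and the blood regulators Tal1, Lmo2 and Gata2. They were taken by symbol from the 32285 genes of the count tables, and each symbol matched a gene. The cells were eYFP+ cells of the Isl1-Cre lineage sorted from the upper body of mouse embryos at E13.5, sequenced with the 5′ single-cell assay of 10x Genomics, which counts transcripts as unique molecular identifiers (UMIs). The control library was Isl1-Cre;R26R-eYFP and the mutant library was Isl1-Cre;R26R-eYFP;Pik3caH1047R, so both carried the Cre and the reporter. The mutant also carried a transgene for an activating form of the PI3-kinase subunit gene Pik3ca. In the study this transgene lies behind a loxP-flanked stop, so that Cre switches it on. Each library pooled 3 embryos of a mixed C57BL/6J and Crl:CD1(ICR) background, and there was 1 library per genotype. Isl1-Cre marks descendants of Isl1-expressing cells, which include cardiopharyngeal mesoderm but also neurons and epithelia. The endothelial and blood cells here are those sorted as that lineage by eYFP, and the lineage of single cells was not tested. The comparison asks how these factors are distributed over the sorted cells and how their levels differ between the genotypes.

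ETS factors bind a GGAA core that is found in nearly all endothelial enhancers and promoters, and ERG and FLI1 are needed to keep endothelial identity once ETV2, expressed briefly in the earliest vascular progenitors, has started it. SOX7 and SOX17 form the SOXF group with SOX18 and act in arterial and lymphatic specification. TAL1, a basic helix-loop-helix factor, LMO2, an adaptor that binds no DNA itself, and GATA2, a zinc finger factor that binds GATA sites, meet in 1 complex in blood progenitors and are also expressed in endothelium.

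Cells with over 2000 and under 9000 genes and mt- UMIs under 10% were kept, 2783 of 4505 in the control and 3489 of 5357 in the mutant library, with 63153191 and 69717583 UMIs and medians of 20412 and 16839 UMIs per cell. Clusters were named from markers that held none of the members. The endothelial-like class had 147 control and 692 mutant cells, with all 18 of 18 endothelial markers raised and median depths of 20203 and 16970 UMIs, and the blood-like class had 173 and 176 cells. The summed endothelial markers stood at 8375 UMIs per 1000000 in control and 8665 in mutant endothelial-like cells and between 37.0 and 338 in all other classes. The 2 libraries had 28 barcodes in common, 12 of them among the kept cells. They also differed in sex: 95.5% of control cells and 33.6% of mutant cells had an Xist UMI and no UMI of a Y-linked gene (female-like), while 53.3% of mutant cells were male-like against 1 control cell. Levels are UMIs of a gene summed over the cells of a class, per 1000000 UMIs of that class. Because each genotype had 1 library, no test between genotypes was possible, and every 95% interval below covers counting error only.

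On the GRCm38 build, Erg lay at chr16:95359169-95586593 on the minus strand, Etv2 at chr7:30633616-30635852 on the minus strand, Sox7 at chr14:63943673-63950732 on the plus strand, Tal1 at chr4:115056426-115071755 on the plus strand and Gata2 at chr6:88193891-88207032 on the plus strand, and no annotated gene overlapped these 5. Fli1 (chr9:32422204-32542861, minus strand) and Ets1 (chr9:32636221-32757820, plus strand) were neighbours 93.4 kb apart. Fli1, Ets1, Sox17 (chr1:4490931-4497354, minus strand) and Lmo2 (chr2:103957986-103981878, plus strand) each overlapped a counted gene on the other strand. In endothelial-like cells the gene opposite Lmo2, 4931422A03Rik, had 19 control and 37 mutant UMIs beside 728 and 1232 of Lmo2, and those opposite Fli1, Ets1 and Sox17 had between 1 and 26 UMIs.

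RefSeq promoter sequences (GRCm38.p6) were at hand for 4 of the 9 members. The 250 bases before the most 5′ start are shown for the 3 in which the cores bound by the members' own families occur, 5′ to 3′ on the gene's strand. Capitals mark the ETS core (GGAA, or TTCC on the other strand) in Etv2 (chr7:30635853-30636102, minus strand) and Gata2 (chr6:88193641-88193890, plus strand), and the GATA core (GATA or TATC) in Tal1 (chr4:115056176-115056425, plus strand).
Etv2: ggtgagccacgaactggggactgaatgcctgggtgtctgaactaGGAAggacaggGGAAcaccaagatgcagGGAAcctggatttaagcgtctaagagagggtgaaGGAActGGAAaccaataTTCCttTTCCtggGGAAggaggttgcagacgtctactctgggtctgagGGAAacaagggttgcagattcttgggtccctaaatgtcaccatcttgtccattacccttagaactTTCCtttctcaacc
Gata2: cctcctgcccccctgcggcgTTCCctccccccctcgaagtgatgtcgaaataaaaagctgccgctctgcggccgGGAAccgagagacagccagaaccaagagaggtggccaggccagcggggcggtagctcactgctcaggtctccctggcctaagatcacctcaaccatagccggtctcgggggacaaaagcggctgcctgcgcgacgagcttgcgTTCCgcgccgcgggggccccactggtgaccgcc
Tal1: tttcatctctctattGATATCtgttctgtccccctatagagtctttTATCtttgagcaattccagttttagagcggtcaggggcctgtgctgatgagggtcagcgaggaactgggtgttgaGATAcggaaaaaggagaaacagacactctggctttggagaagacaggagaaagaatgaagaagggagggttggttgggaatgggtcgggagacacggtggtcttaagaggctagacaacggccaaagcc
The Etv2 window held 10 ETS cores, the Gata2 window 3, and the Tal1 window 4 GATA cores, a pair of them overlapping, beside 4 ETS cores. The window before the most 5′ start of Erg (chr16:95586594-95586843, minus strand) held 0 ETS cores. Erg had 3 starts, and the windows of starts 2 and 3 from the 5′ end held 4 and 2 ETS cores. Tal1 and Gata2 each had 2 starts. The window of start 2 held 0 GATA cores and 3 ETS cores in Tal1, and 1 ETS core in Gata2. The counts therefore belong to the window of 1 start and not to the gene. Of 32851 promoter windows of the same length, 93.4% held an ETS core, with a median of 3, and 53.6% held a GATA core, with a median of 1, so the Etv2 and Tal1 windows held more of these letters than the median window and the Gata2 window held the median number. A match of letters is a description of the window and not a site shown to be bound.

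Among the ETS genes, Erg, Fli1 and Ets1 were highest in endothelial-like cells in both libraries when classes are compared, and each also had sites outside the vessel wall. Erg, which maintains endothelial junctions and identity, stood at 146 UMIs per 1000000 in control endothelial-like cells, in 126 of 147 cells, and at 114.5 in the mutant, in 530 of 692 cells. That was 19.9-fold (17.4 to 22.7) and 13.4-fold (12.08 to 14.98) the level of all cells outside the endothelial-like and blood-like classes. Smooth muscle and mural-like cells held 45.2 and 64.1, mesenchyme-like cells 28.9 and 25.2, and blood-like cells 32.4 and 34.4 in the control and the mutant. Within the mesenchyme-like cells a finer cluster led by Col9a3, Col2a1 and Matn4, with all 8 of 8 cartilage markers raised, reached 148 and 160, so cells of a cartilage type held Erg at or above the level of the endothelial-like class.

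Fli1, an ETS factor of endothelium and several blood lineages, was at 403 in control and 318 in mutant endothelial-like cells and at 184 and 146 in blood-like cells. The endothelial-like level was 40.4-fold (36.5 to 44.6) and 21.9-fold (20.2 to 23.7) that of the cells outside both classes. Mesenchyme-like cells followed with 31.5 and 55.3, and the cartilage-type cluster had 96.5 and 68.7. A small neuron cluster led by Cntnap2 and Nwd2 had 171 in the control, all of it from 3 of 16 cells.

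Ets1, which acts in endothelium, lymphocytes and neural crest, was at 271 and 229.8 in endothelial-like cells, 15.4-fold (14.1 to 16.9) and 12.4-fold (11.5 to 13.3) the level of the cells outside both classes. Its next sites were neural crest and Schwann-like cells with 123 and 104, smooth muscle and mural-like cells with 61.6 and 97.2, and an unnamed cluster led by Adh1, Wnt2, Hoxb5 and Tbx4 with 40.1 and 64.7. Ets1 was therefore the ETS member with a clear level in neural crest derivatives, where Erg had 0 UMIs in both libraries and Fli1 had 2 and 0.

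Etv2 was near the floor everywhere. Endothelial-like cells had 7 control and 16 mutant UMIs, or 2.16 and 1.16 per 1000000. The class with the most UMIs was the branchial muscle-like class of the control, with 42 UMIs in 35 of 888 cells, against 11 UMIs in the mutant, and no class exceeded the endothelial-like level. Values of this size are not read as expression.

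**Figure D1:**
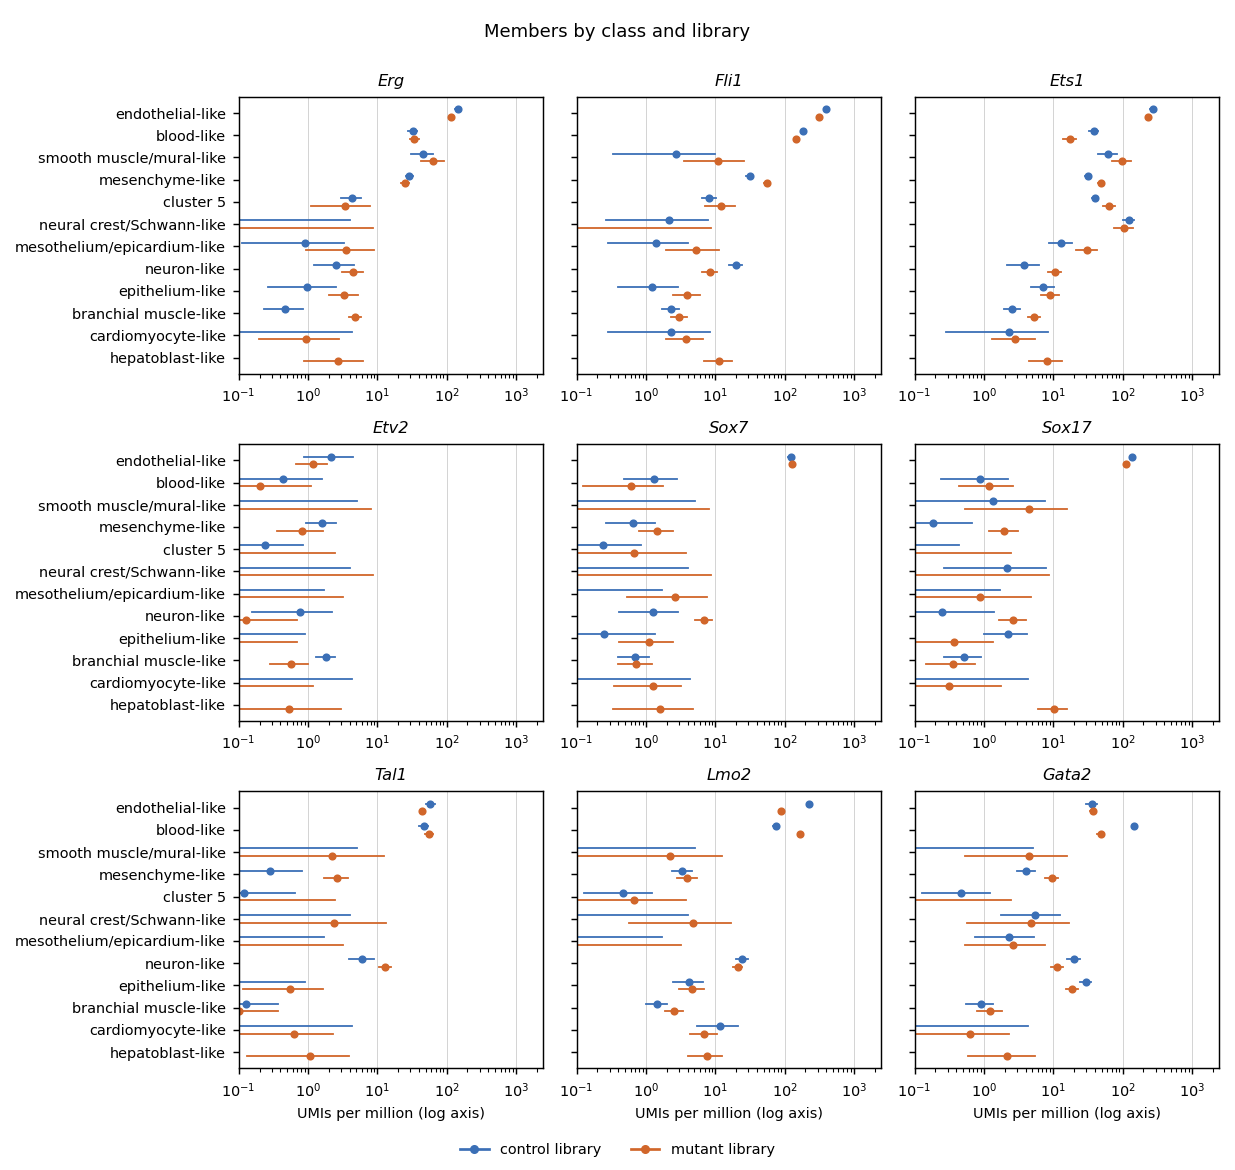
Levels of the 9 members in each class of cells on a log axis of UMIs per 1000000, for the control and the mutant library, with 95% exact Poisson intervals for counting error; a line with no point stands for 0 UMIs. Sox7 and Sox17 stand high in endothelial-like cells alone, while Fli1, Tal1, Lmo2 and Gata2 are also high in blood-like cells and Ets1 in neural crest and Schwann-like cells.

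The SOX members had the largest folds over other cells, and almost no UMIs in blood-like cells. Sox7 was at 124 in control and 127.5 in mutant endothelial-like cells, 221-fold (153 to 329) and 65.6-fold (53.6 to 81.2) the level of the cells outside both classes. Sox17 was at 139 and 112, 284-fold (193 to 436) and 79.5-fold (62.8 to 102) that level. In blood-like cells they had between 3 and 6 UMIs per library, and outside the endothelial-like class no class passed 10.2 UMIs per 1000000 for either gene. The 10.2 belonged to Sox17, a gene of early endoderm, in the 46 hepatoblast-like cells, which were present in the mutant library only. Sox7 in mutant neuron-like cells rested on few cells, since 40 of 54 UMIs came from 5 cells and 22 from a single cell.

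The fold over other cells was smaller in the mutant library for all members except Etv2. The share of all genes with a smaller fold is not given, so this is not read as a result about the members. Summed endothelial markers in the cells outside both classes were higher in the mutant library in 8 of the 9 classes present in both. Those sums lay between 37.0 and 172 UMIs per 1000000 in the control and between 65.6 and 252 in the mutant over these 9 classes. In neuron-like cells they were 87.1 and 213, and in branchial muscle-like cells 61.0 and 96.8. Their part in the low levels of the members there was not tested.

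Tal1, Lmo2 and Gata2 were shared between endothelial-like and blood-like cells. Tal1, needed for the first blood cells, stood at 58.3 and 44.2 in endothelial-like and at 46.5 and 55.8 in blood-like cells of the control and the mutant. Lmo2 stood at 224.5 and 89.5 in endothelial-like and at 74.8 and 168 in blood-like cells, so its order between these classes was opposite in the libraries. Gata2 stood at 36.1 and 37.5 in endothelial-like and at 149 and 48.4 in blood-like cells. In endothelial-like cells with a Tal1 UMI, Lmo2 was also detected in 93.9% of control and 69.4% of mutant cells, against 85.4% and 53.8% of the cells without one. The cells with and without a Tal1 UMI were not matched for depth, and the part of depth in these shares was not tested.

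Outside these classes Gata2 and Lmo2 had further sites. Gata2, which also acts in sympathetic neurons and the pituitary, was at 133 and 62.2 in a fine cluster led by Cartpt, Dbh and Phox2a, genes of sympathetic neurons, and at 27.4 and 66.4 in a cluster led by Cga, Six6 and Lhx3, genes of the pituitary. Epithelium-like cells, the class to which the Cga-led cluster belongs, held 29.3 and 18.8. In the control the Cga-led cluster was therefore not above its class. Lmo2 was at 24.2 and 21.1 in neuron-like cells.

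Tal1 in neuron-like cells was low, 6.06 in the control and 12.9 in the mutant, but its cells shared other genes. Of the 31 mutant neuron-like cells with a Tal1 UMI, 18 (58.1%) also had Gata2 and 21 (67.7%) had Gata3, against 2.71% and 10.4% of the other neuron-like cells. Gad1, an enzyme of GABA synthesis, was detected in 48.4% of the Tal1 cells and in 21.0% of the others. The endothelial genes Cdh5 and Pecam1 were detected in 25.8% and 32.3% of the Tal1 cells and in 8.13% and 12.4% of the others. Lmo2 was detected in 38.7% and 14%. Depth was not matched between these cells, and its part in the shares was not tested. The control library had only 5 neuron-like cells with a Tal1 UMI, too few to describe.

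Between genotypes, Lmo2 was the member with the largest difference in endothelial-like cells among those with more than a few UMIs. It had 728 UMIs in 147 control cells, or 224.5 per 1000000 (208.5 to 241), and 1232 UMIs in 692 mutant cells, or 89.5 per 1000000 (84.6 to 94.7). The log2 ratio of mutant over control was -1.33 (-1.46 to -1.19), or 0.399-fold. At least 1 Lmo2 UMI was found in 91.2% of control and 61.1% of mutant cells, and after every cell had been thinned to 5000 UMIs the shares were 56.9% (48.4 to 65.2) and 30.5% (27.0 to 34.2). Branchial muscle-like cells, which should lack the gene, had 0.572% and 1.88% by the same measure, with 14 and 46 cells left out as shallower, as were 3 and 33 endothelial-like cells. The mutant library was lower by level and by share, and its cells were the shallower ones.

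The lower Lmo2 level was also present between cells of the same sex call. Female-like endothelial-like cells had 217 in 132 control and 98.4 in 234 mutant cells, a log2 ratio of -1.14 (-1.32 to -0.97), and the 381 male-like mutant cells had 85.8. In cells scored as G1, 63 control and 352 mutant, the ratio was -1.54 (-1.74 to -1.34). Lmo2 was thus lower in the mutant library in female-like cells and in G1 cells. Both sets are parts of the whole class, and the part of sex call or cell-cycle phase in the ratio was not tested. Blood markers in the endothelial-like class were low: the macrophage list summed to 119 in the control and 64.1 in the mutant, the erythroid list to 67.5 and 81.0, and Ptprc, a gene of all white blood cells, was detected in 2 of 147 and 1 of 692 cells. In blood-like cells the same lists stood at 6444 and 2830 and at 3723 and 14850, and the part of this background in the Lmo2 ratio was not tested.

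The ETS members Erg, Fli1 and Ets1 and the factors Sox17 and Tal1 were lower in the mutant library by less than 1.5-fold. Erg, at 146 (133 to 160) and 114.5 (109 to 120), had a log2 ratio of -0.35 (-0.50 to -0.20). Fli1, at 403 (381 to 425) and 318 (308 to 327), had -0.34 (-0.43 to -0.25), and Ets1, at 271 (253 to 289) and 229.8 (222 to 238), had -0.24 (-0.35 to -0.13). The values of Fli1 and Ets1 moved with the cells compared: in G1 cells Fli1 was at -0.0004 (-0.15 to 0.15) and Ets1 at 0.01 (-0.17 to 0.20), so these intervals held 0. Sox17, at 139 (126 to 152) and 112 (107 to 118), had -0.30 (-0.46 to -0.15). Tal1, at 58.3 (50.3 to 67.2) and 44.2 (40.8 to 47.9), had -0.40 (-0.64 to -0.16) over all cells and -0.14 (-0.43 to 0.15) between female-like cells.

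Sox7 and Gata2 were close in the libraries. Sox7 had 401 and 1754 UMIs, 124 (112 to 136) and 127.5 (122 to 134) per 1000000, and a log2 ratio of 0.04 (-0.11 to 0.20). Gata2 had 117 and 516 UMIs, 36.1 (29.8 to 43.2) and 37.5 (34.3 to 40.9) per 1000000, and a ratio of 0.06 (-0.24 to 0.36). In G1 cells Sox7 was at -0.30 (-0.51 to -0.08). Etv2, on 7 and 16 UMIs, had -0.89 with an interval from -2.25 to 0.63.

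Counting a member as different where its ratio passed 1.5-fold, the fold used in the study, 2 of 9 were lower, Lmo2 and Etv2 with its 23 UMIs, and 0 were higher. Over all 14120 genes with at least 20 UMIs in these cells, 14.7% were lower and 14.8% higher by the same rule. The median log2 ratio was -0.34 over the members and -0.07 over all genes, and scaling by the TMM factor or by the median ratio of genes shifted every ratio upwards by 0.12 or 0.10.

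**Figure D2:**
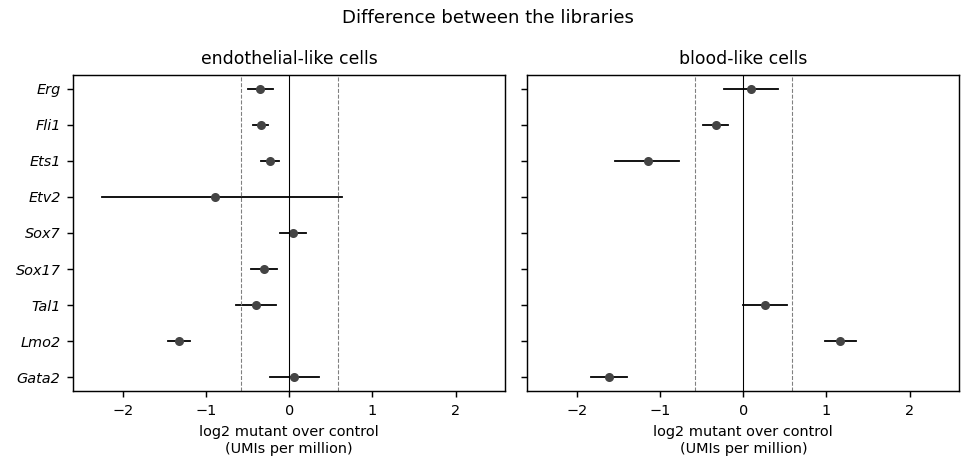
Log2 ratio of mutant over control for each member in endothelial-like and blood-like cells with 95% intervals for counting error; dashed lines mark 1.5-fold in either direction. Lmo2 lies at -1.33 in endothelial-like and at 1.17 in blood-like cells, on opposite sides of the lines, and Gata2 at 0.06 and -1.62.

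Within the endothelial-like class, 10 sub-clusters were described by their leading genes, an arterial-like and a lymphatic-like one among them. Lmo2 was lower in the mutant library in 9 of 10. Among these 9 was a sub-cluster of 5 control and 18 mutant cells led by Hpse2, Dlk1 and the mesenchyme marker Col1a1. Its median depths were 30225 and 38292 UMIs, against 20203 and 16970 in the class, so its cells may not be endothelial alone, which was not tested. Lmo2 stood at 251 and 98.7 in the sub-cluster led by Jarid2, Gimap4 and Cenpa, at 154 and 73.4 in the one led by Adamts18, and at 323 and 153 in the one led by Eln, Fbln5 and Hand2os1, in which 11 of 12 arterial markers were raised. These are the 3 sub-clusters with at least 20 cells in each library, and their log2 ratios were -1.35 (-1.63 to -1.05), -1.07 (-1.41 to -0.73) and -1.08 (-1.41 to -0.73). The Eln-led one was not named arterial-like, because its arterial markers did not stand far enough ahead of another marker list. Arterial-like cells, 14 control and 46 mutant, had 435 and 156. The exception was a sub-cluster led by Pcdh15 and Tafa1, at 64.9 and 141, where the control value rested on 6 UMIs of 7 cells. Weighting the sub-clusters equally in both libraries is one of the settings under which the ratio was computed again, and it was at -1.14 or lower in all of them.

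Sox7 was highest in the arterial-like and lowest in the lymphatic-like sub-cluster in both libraries, and Sox17 was highest in the arterial-like and the Eln-led sub-clusters. Sox7 did not follow arterial markers throughout, at 155.5 and 162 in the Eln-led sub-cluster, 168 and 190 in the one led by Trib3, Slc2a3 and Fgf23 and 236 and 118 in the one led by Dgkq. Sox7 was at 449 and 238 in arterial-like and at 8.74 and 20.4 in lymphatic-like cells, which were 19 control and 29 mutant cells with 9 of 10 lymphatic markers raised. Against all other endothelial-like cells, at 142.5 and 133.5, the log2 ratio for lymphatic-like cells was -4.03 (-5.91 to -2.66) in the control, on 4 UMIs, and -2.71 (-3.55 to -1.99) in the mutant, on 15. Sox17 was at 56.8 against 152 in the control and 54.4 against 116 in the mutant, ratios of -1.42 (-2.05 to -0.85) and -1.09 (-1.58 to -0.64). The direction was shared by both libraries for both genes, although Sox17 was lower still in the Hpse2-led sub-cluster of the control, with 0 UMIs in 5 cells, and in the Pcdh15-led one of the mutant, at 24.5. When lymphatic cells were chosen by counts of marker UMIs instead, 28 control and 150 mutant cells, the mutant ratios were -0.56 (-0.74 to -0.39) for Sox7 and -0.30 (-0.48 to -0.13) for Sox17, and the control ratios -3.62 (-4.84 to -2.63) and -1.32 (-1.82 to -0.86).

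Sox17 was highest in the Eln-led sub-cluster of the control, at 348 against 178 in the mutant, a log2 ratio of -0.96 (-1.28 to -0.64). The share of Eln-led cells with a Sox17 UMI had the opposite order, 11 of 21 control cells (52.4%) and 56 of 90 mutant cells (62.2%). In the mutant library Sox17 was highest in arterial-like cells, at 274 against 214 in the control. Sox7 in the Adamts18-led sub-cluster was at 79.0 and 120, a ratio of 0.61 (0.21 to 1.02), while in the other 2 sub-clusters of at least 20 cells its interval held 0. The difference between these ratios was not tested.

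Among the ETS members, Fli1 and Ets1 were highest in control cells of the sub-cluster led by Kirrel3, Nhs and Nlgn1, with 1174 in the control and 708 in the mutant for Fli1 and 641 and 464 for Ets1. That sub-cluster had 10 control and 75 mutant cells, with median depths of 14273 and 8365 UMIs. Ets1 was at 445 and 554 in arterial-like and at 177 and 80.2 in lymphatic-like cells. Against the other endothelial-like cells, Fli1 in lymphatic-like cells had log2 ratios of -1.24 (-1.57 to -0.92) and -0.67 (-0.91 to -0.43), and Ets1 of -0.69 (-1.04 to -0.36) and -1.57 (-1.97 to -1.20). With lymphatic cells chosen by marker UMIs, the mutant ratios were -0.01 (-0.11 to 0.09) for Fli1 and -0.04 (-0.16 to 0.08) for Ets1, so the contrast was not seen in the mutant library by that choice, and the control ratios were -0.67 (-0.90 to -0.44) and -0.58 (-0.87 to -0.31). The intervals of Erg held 0 in both libraries, at 0.27 (-0.10 to 0.62) in the control and -0.28 (-0.65 to 0.07) in the mutant. Lmo2 and Tal1 in control lymphatic-like cells, 229 and 59.0, were near the 224 and 58.2 of the other cells. In the mutant, Lmo2 was at 136 against 86.9, a log2 ratio of 0.64 (0.34 to 0.94), and Tal1 at 27.2 against 45.2, a ratio of -0.73 (-1.45 to -0.09). By the choice from marker UMIs these mutant ratios were -0.11 (-0.30 to 0.08) for Lmo2 and -0.24 (-0.53 to 0.03) for Tal1. Both of those intervals held 0, so neither contrast was seen by that choice.

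**Figure D3:**
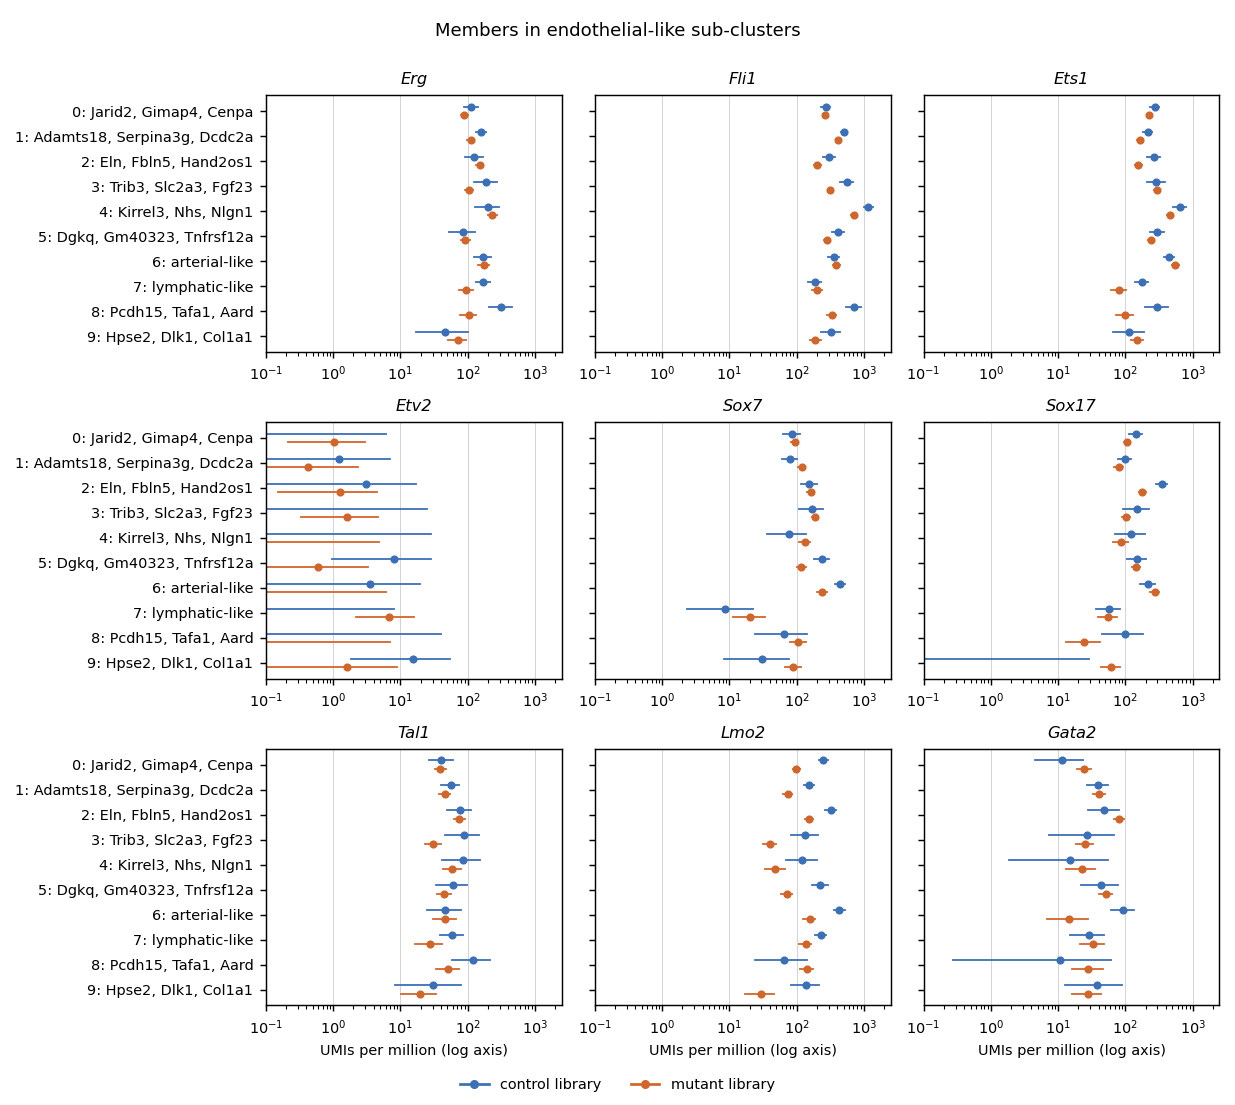
Levels of the members in the endothelial-like sub-clusters, in UMIs per 1000000 on a log axis, for the control and the mutant library, with 95% exact Poisson intervals for counting error; a line with no point stands for 0 UMIs. Lmo2 is lower in the mutant in 9 of 10 sub-clusters, and Sox7 is at its lowest in the lymphatic-like cells of both libraries, at 8.74 and 20.4.

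In the blood-like class the levels of the members differed between sub-clusters, and the makeup of the class differed between the libraries. Macrophage-like cells numbered 54 in the control and 24 in the mutant, erythroid-like cells 5 and 26, cells led by the granule genes Elane, Ctsg and Mpo 20 and 51, and cells led by Cpa3, a mast cell protease gene, Gzmb and Il13 17 and 11. Summed erythroid markers were at 3723 and 14850 UMIs per 1000000 and macrophage markers at 6444 and 2830. Ratios over the whole class therefore mix lineage and level.

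Gata2 was concentrated in the Cpa3-led cells, at 983 and 462, with a UMI in 17 of 17 and 11 of 11 cells. These cells had 0 Lmo2 UMIs in both libraries, where 3 UMIs would have been 4.85 and 12.8 per 1000000, and Erg at 155 and 68.4. Tal1 was highest in erythroid-like cells, at 292 and 137, and Lmo2 was high there too, at 277 and 328.

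Macrophage-like cells held Fli1 at 218 and 209, Lmo2 at 115 and 82.5 and Tal1 at 66.0 and 20.6, with 0 Erg UMIs in both libraries, where 3 UMIs would have been 2.00 and 4.13 per 1000000. The Elane-led cells had Erg at 59.2 and 64.7 and Gata2 at 57.7 and 35.5. Lymphoid-like cells, 13 and 5, had Ets1 at 445 and 265 and no control UMI of Tal1, Lmo2 or Gata2. Ets1, a lymphocyte factor, and Gata2 thus were highest in separate sub-clusters, while Fli1 was present in each of the 8, between 46.6 and 509. The 46.6 belonged to control cells of a sub-cluster led by Nnat and the mesenchyme markers Dcn and Col1a1. It had 8 control and 20 mutant cells, and its best blood list had 2 of 12 markers raised, so its cells are not clearly blood. Both Ets1 and Gata2 were found in other sub-clusters. In Elane-led cells Ets1 was at 54.7 and 11.8 beside the Gata2 levels above. In the sub-cluster led by Tox, Camk4 and Lrmda, Ets1 was at 148 and 38.9 and Gata2 at 47.7 and 98.9.

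**Figure D4:**
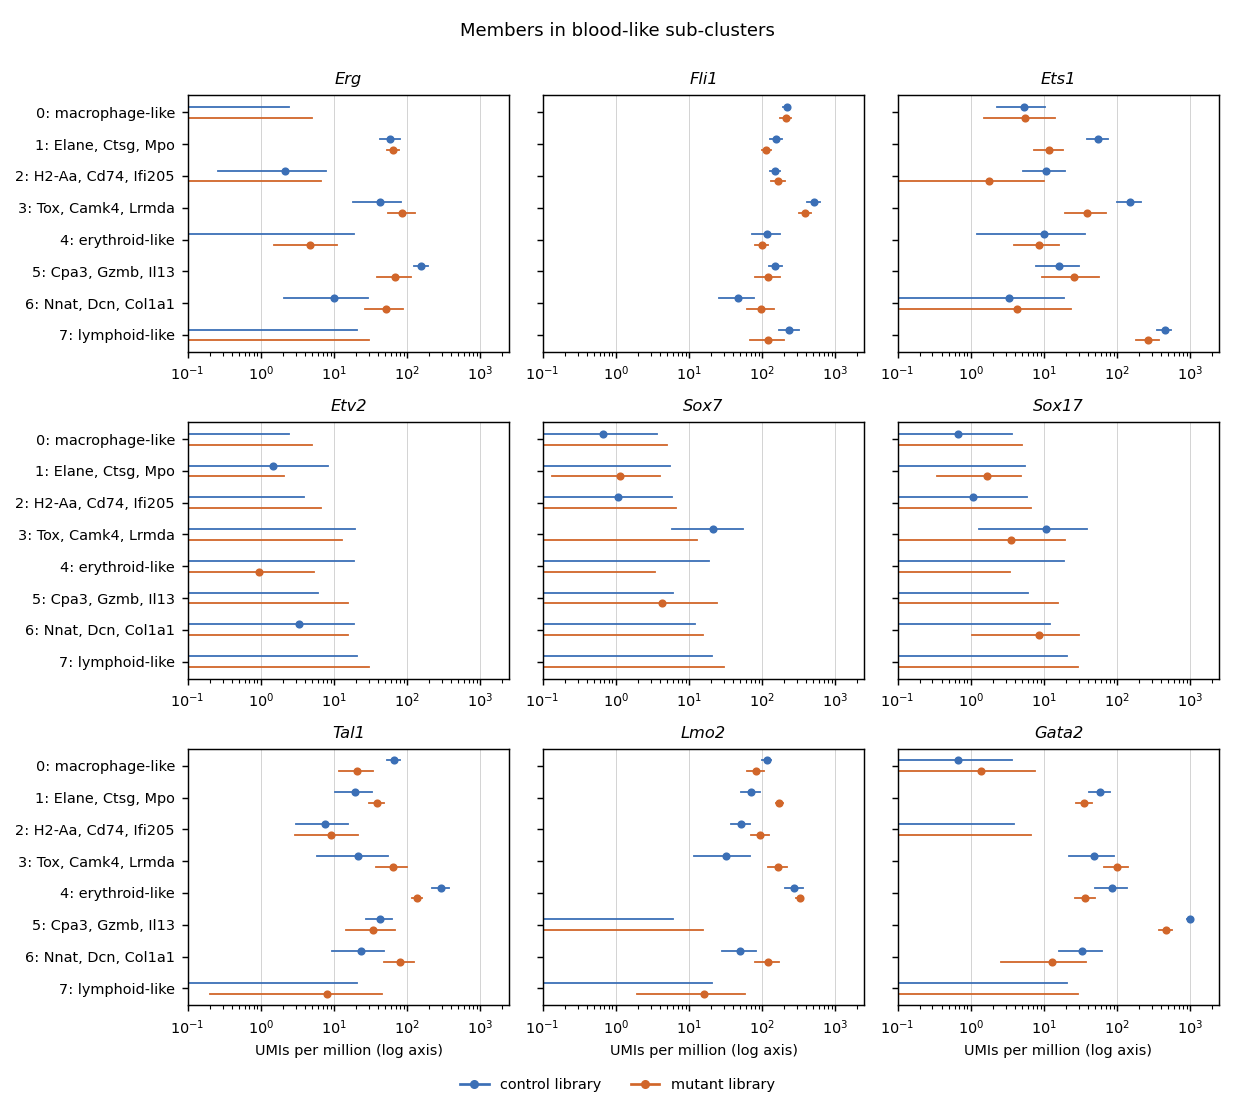
Levels of the members in the blood-like sub-clusters, in UMIs per 1000000 on a log axis, for the control and the mutant library, with 95% exact Poisson intervals for counting error; a line with no point stands for 0 UMIs. Gata2 peaks in the sub-cluster led by Cpa3, Gzmb and Il13 at 983 and 462, Tal1 in erythroid-like cells at 292 and 137, and Ets1 in lymphoid-like cells at 445 and 265.

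Over the whole blood-like class, 6 members had at least 20 UMIs in all. Lmo2 was higher in the mutant, with a log2 ratio of 1.17 (0.99 to 1.35), and Ets1 at -1.15 (-1.54 to -0.77) and Gata2 at -1.62 (-1.84 to -1.40) were lower, so 1 was beyond 1.5-fold higher and 2 were lower. Of 12563 genes in these cells, 11.5% were higher and 19.3% lower. Tal1 was at 0.26 (0.00 to 0.53), Erg at 0.09 (-0.24 to 0.41) and Fli1 at -0.33 (-0.48 to -0.19).

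Several of these ratios changed with the sub-clusters included. Gata2 was at 0.56 (0.14 to 0.99) without the Cpa3-led cells and at -0.82 with the sub-clusters weighted equally in both libraries. Tal1 was at -0.06 (-0.40 to 0.28) without erythroid-like cells and at -0.31 with equal weights. Erg was at 1.30 (0.84 to 1.78) without the Cpa3-led cells. Lmo2 kept its direction, at 0.93 (0.72 to 1.14) without erythroid-like cells and at 0.66 with equal weights.

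Only the macrophage-like and Elane-led sub-clusters had at least 20 cells in each library. In Elane-led cells Lmo2 was at 69.5 and 171, a log2 ratio of 1.30 (0.85 to 1.78), and Ets1 at 54.7 and 11.8, a ratio of -2.21 (-3.06 to -1.40). In macrophage-like cells Tal1 had a ratio of -1.68 (-2.57 to -0.89) and Lmo2 of -0.48 (-0.93 to -0.05). The direction of Lmo2 therefore was not the same in these 2 sub-clusters, a difference that was not tested.

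The members' families and partners were read from lists chosen by role. The counts of each list stand beside 14.8% higher and 14.7% lower over all 14120 genes, whose median was -0.07. In endothelial-like cells, 16 of 22 other ETS genes had at least 20 UMIs, of which 0 were beyond 1.5-fold higher and 5 lower in the mutant, with a median of -0.23. Etv4 was at 21.3 and 7.92 with a log2 ratio of -1.43, Etv1 at 25.0 and 9.38 with -1.41, and Etv5 at 11.7 and 6.03 with -0.96. These 3 belong to the PEA3 group of ETS genes, whose transcription follows FGF signalling. Of other SOX genes 9 of 15 were measured, 1 higher and 3 lower, with a median of -0.21. Sox18, the remaining SOXF gene, was at 245 and 138 with a ratio of -0.82 (-0.94 to -0.70), Sox13 at -0.83 and Sox6 at -0.62, and Sox9 at 1.15 on 15 control UMIs.

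Of the partners of the TAL1, LMO2 and GATA2 complex and other blood regulators, 22 of 26 were measured, 4 higher and 7 lower, with a median of -0.43. Over all genes 14.8% were higher and 14.7% lower. Some counted genes had few control and mutant UMIs. The lower ones included Ikzf1 on 12 and 15, Runx1 on 19 and 42, Lmo1 on 14 and 27, Klf1 on 10 and 19 and Myb on 8 and 19. The higher ones included Nfe2 on 3 and 23. Ldb1, whose protein binds LMO2, was at 124 and 107 with a log2 ratio of -0.21 (-0.37 to -0.05), and Ldb2 at -0.26 (-0.33 to -0.18). Lyl1, the closest relative of Tal1, was at 41.6 and 61.9, a ratio of 0.57 (0.31 to 0.85). Hhex was at 0.76, Zfpm1, a GATA cofactor, at 0.67 and Gata3 at 1.15, while Tcf4, an E protein that pairs with TAL1, was at -0.73 and Cbfa2t3, a corepressor of TAL1, at -0.65. In endothelial-like cells the blood factor Spi1 had 25 control and 19 mutant UMIs, Runx1 had 19 and 42, and Gata1 had 0 and 3. In blood-like cells Spi1 was at 293 and 191 and Runx1 at 328 and 282, against 7.71 and 1.38 and 5.86 and 3.05 in endothelial-like cells.

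All 21 of 21 other endothelial transcription factors were measured, 6 higher and 5 lower, with a median of 0.18. Over all genes 14.8% were higher and 14.7% lower. Tbx20 was at 6.17 and 25.7 with a log2 ratio of 2.06, Foxc2, a factor of lymphatic valves, at 1.58 and Foxc1 at 1.08. Foxf1, a lung vessel factor, was at 38.5 and 6.83 with -2.50, Meox2 at -1.69 and Hey1, a target of Notch, at -0.96. The last list holds 21 endothelial genes with described ETS or SOXF elements, of which 2 were higher and 6 lower, with a median of -0.36. Flt1, a VEGF receptor, was at 434 and 888 with 1.03 and Vwf at 0.93, while the arterial genes Gja4, at 226 and 92.7, and Dll4, at 82.3 and 35.3, had -1.29 and -1.22, and Robo4 had -1.17.

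**Figure D5:**
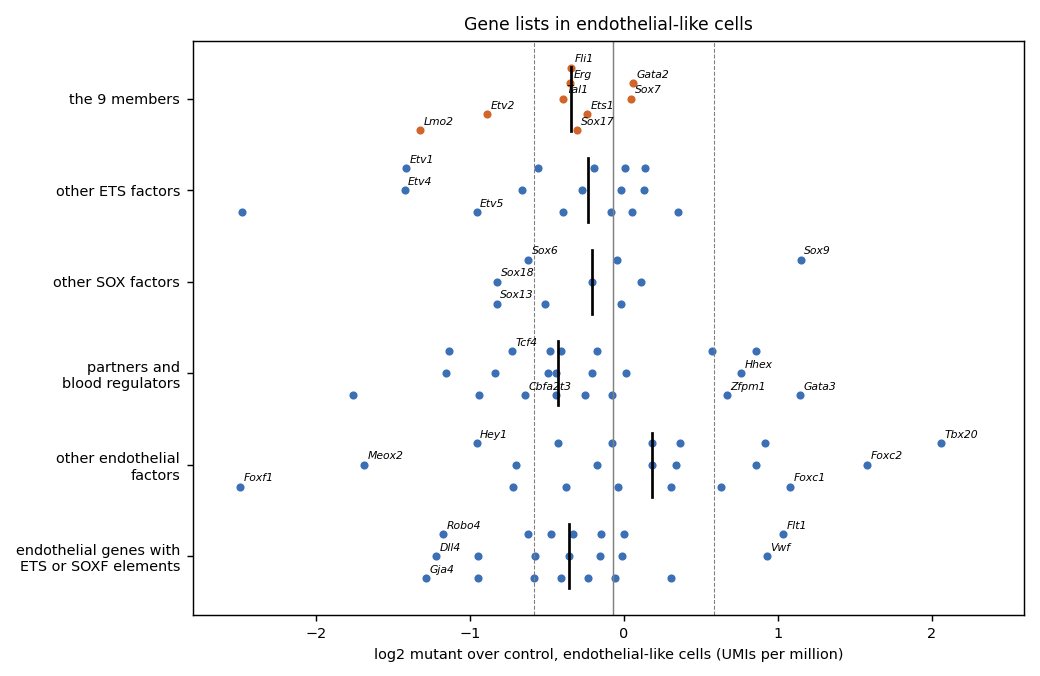
Log2 ratio of mutant over control in endothelial-like cells for each gene of the members and of the 5 lists; points are genes, black bars are list medians, the grey line is the median of all genes at -0.07 and dashed lines mark 1.5-fold. Medians lie between -0.43 for the list of partners of TAL1, LMO2 and GATA2 and other blood regulators and 0.18 for other endothelial transcription factors.

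The genes whose levels followed each member most closely were taken as the 3 highest Pearson correlations of log levels over 32 points, which were 16 sets of cells in each library, some of them nested in others, so r is a description only. For Sox7 they were Cldn5 (r = 0.978), Klhl4 (0.975) and Gpr182 (0.972), and for Sox17 Mmrn2 (0.970), Plvap (0.964) and Gpr182 (0.964). For Erg they were Ripor1 (0.861), Stard4 (0.843) and Myct1 (0.842), for Fli1 Gngt2, 5033406O09Rik and Gimap6 (each 0.926), and for Ets1 Arap3 (0.864), Elk3 (0.857) and Fmnl3 (0.856). Tal1 and Lmo2 were each other's first gene at 0.951, followed by Lyl1 (0.947) and Grap (0.933) for Tal1 and Fxyd5 (0.923) and Lyl1 (0.914) for Lmo2. Gata2 had Gfod1 (0.871), Dennd3 (0.865) and Spns2 (0.853). Etv2 did not reach 20 UMIs per 1000000 in any set, so its likeness was not read.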

How the data were processed

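Single-cell RNA was sequenced from 1 control and 1 mutant library of 3 pooled embryos each. The authors aligned reads to GRCm38 with Cell Ranger 7.1.0, per the submitters' processing notes, and deposited raw UMI counts of every gene and cell, with no normalization. Whether counting used strand or introns is not given in the sources used here.

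The filter of the study was applied, and the libraries were integrated with Seurat 5.3.0 in R 4.3.3 (CCA anchors, cell-cycle effects removed), leaving 114 listed genes, members included, out of the 2000 variable genes. With 30 components, resolution 0.3 gave 15 clusters and 0.8 gave 26. Endothelial-like and blood-like cells were clustered again with 20 components at resolution 0.8; that step and the rule that named sub-clusters were settled after the clusters were seen. A class is called X-like because its name is rebuilt from markers. Doublets were kept: Scrublet (scanpy 1.11.5) marked 2 control and 10 mutant cells.

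Levels were sums of UMIs over a set of cells. The 95% intervals are Clopper-Pearson for shares, exact Poisson for levels and, for ratios, exact binomial given the total of both libraries. Genes with at least 20 UMIs over both libraries were counted, in classes of at least 50 cells and sub-clusters of at least 20 cells per library. The named genes of a list are at most the 3 with the largest ratios in each direction among those beyond 1.5-fold with at least 100 UMIs in endothelial-like cells, with Lyl1, Ldb1, Ldb2, Spi1, Runx1, Gata1 and Sox18 given whatever their value. Likeness is Pearson's r of log2(level + 1). The members and lists were chosen with earlier results of these data known. The ratio and its interval were tested on simulated Poisson sums with no spread between cells or embryos, so that test covers counting error only. Alternatives covered scaling (edgeR 4.0.16 for the TMM factor), filters, doublets, integration, sex call and phase. Gene positions are from GENCODE for GRCm38. Python 3.11.15 was used.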

Additional observations from a re-analysis of the deposited data

Results flagged for a closer look

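Barcodes outside the cell filter, 1722 in the control and 1868 in the mutant library, entered no comparison. In them 5 members had higher levels in the mutant library, with intervals for counting error that did not overlap: Erg at 41.45 against 16.7 UMIs per 1000000, Fli1 at 85.99 against 37.5, Ets1 at 77.9 against 38.9, Sox7 at 35.26 against 7.14 and Lmo2 at 35.97 against 24.6. The share of all genes that differed in this way is not given, so the count is not read as a result about the members. The mutant library also held more endothelial-like cells among the kept ones, 692 against 147, and the part of that in these levels was not tested.

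Among classes in which a member reached at least 20 UMIs per 1000000 in a library, 4 members had log2 ratios of mutant over control with intervals on opposite sides of 0 in different classes. The differences between classes were not tested. The share of all genes with such intervals is not given, so the count is not read as a result about the members. Fli1 was at 0.81 in mesenchyme-like cells, -0.33 in blood-like cells and -0.34 in endothelial-like cells. Ets1 was at 0.69 in the cluster led by Adh1, Wnt2, Hoxb5 and Tbx4, 0.62 in mesenchyme-like and 1.24 in mesothelium and epicardium-like cells, and at -1.15 in blood-like and -0.24 in endothelial-like cells. Tal1 was at 0.26 (0.00 to 0.53) in blood-like and -0.40 in endothelial-like cells. The blood-like sign of Tal1 was opposite without erythroid-like cells and with equal sub-cluster makeup. Lmo2 was at 1.17 in blood-like and -1.33 in endothelial-like cells. Below that level the same held for Erg, at 3.34 (2.44 to 4.39) in branchial muscle-like and -0.35 in endothelial-like cells, for Sox17, at 3.41 (1.35 to 6.55) in mesenchyme-like and -0.30 in endothelial-like cells, and for Gata2, at 1.21 (0.67 to 1.76) in mesenchyme-like and -1.62 in blood-like cells.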

How the results depend on the processing

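No paired analysis was possible because each genotype had 1 library, and for the same reason no replicate could be left out. Each member's ratio in endothelial-like cells was computed under 14 alternatives, of which 3 were added after the data were seen: equal sub-cluster makeup, without the sub-cluster of highest UMI count and without the sub-cluster with few control cells. Lmo2 stayed between -1.54 (G1 cells) and -1.14 (female-like cells). Sox17 ran from -0.43 to -0.18, Gata2 from -0.08 to 0.18 and Etv2 from -2.19 to -0.25. Erg ran from -0.44 to -0.18 (mean over cells). Fli1 was at -0.22 with the TMM factor, -0.24 with the median ratio, -0.17 as the mean over cells, -0.0004 in G1 cells and -0.47 with equal makeup. Ets1 was at -0.12 with the TMM factor and 0.012, opposite in sign, in G1 cells. Sox7 was at -0.30 in G1 cells and Tal1 at -0.14 in female-like cells.

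The count of members lower was 1 instead of 2 with intervals wholly beyond 1.5-fold, with high Scrublet scores removed, with classes from marker counts and without the sub-cluster of highest UMI count, since Etv2 no longer met the rule. The interval of Etv2, -2.25 to 0.63, was not wholly beyond 1.5-fold. The share of all genes lower under these settings is not given, so this count is not read as a result about the members. With genes of at least 100 UMIs 9.28% of all genes were higher, and with at least 1 UMI 34.9% were lower. The share lower at 100 UMIs, the limit that all members but Etv2 pass, is not given here. With lymphatic cells from marker counts the mutant ratios were -0.56 for Sox7, -0.30 for Sox17, -0.01 for Fli1, -0.04 for Ets1, -0.24 for Tal1 and -0.11, opposite in sign, for Lmo2. In blood-like cells, under alternatives also added after the data were seen, the sign was opposite for Tal1 at -0.31 with equal makeup and -0.059 without erythroid-like cells, and for Gata2 at 0.56 without the Cpa3-led cells. The cause of these changes was not tested. Depth limits Etv2, at 23 UMIs in endothelial-like cells, and sub-clusters with under 20 control cells.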

Other observations

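Low levels of the members outside their main classes differed between the libraries. Erg in branchial muscle-like cells had 11 UMIs in 9 of 888 control cells and 93 UMIs in 56 of 844 mutant cells, where the most in a single cell were 3 and 8. Sox17 in mesenchyme-like cells had 2 and 19 UMIs, 16 of the latter in 5 cells, and Tal1 there had 3 and 25 UMIs in 3 and 16 cells. Gata2 in mesenchyme-like cells was at 4.10 and 9.46 UMIs per 1000000, a log2 ratio of 1.21 (0.67 to 1.76). Summed endothelial markers in mesenchyme-like cells were 172 and 208. These values were not tested.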
